A study of Mus musculus with 6 samples.

Results

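Desmosomes are the spot-like junctions that hold keratinocytes together and anchor their keratin filaments. The genes examined here are the 10 desmosome genes Dsg1a, Dsg1b, Dsg2, Dsg3, Dsc1, Dsc2, Dsc3, Dsp, Pkp1 and Jup, taken by symbol, and all 10 were found among the 31053 genes listed. They were followed in 6 single-cell RNA libraries of dorsal skin from female C57BL/6J mice aged 8 to 10 weeks, with 2 libraries in each of 3 groups. Sham mice had no treatment. IMQ mice had 62.5 mg of 5% imiquimod cream, a TLR7 ligand that provokes psoriasis-like skin inflammation, spread daily for 4 days on the shaved back. IMQ+SHP099 mice also received by gavage 10 mg/kg of SHP099, a compound that blocks the phosphatase SHP2 allosterically, on each of the 4 days. Each library pools skin of several mice, so mice cannot be told apart. The paper gives fewer mice per library in Sham than in the other groups, so pool size goes with the group. A test over n = 2 libraries per group measures the spread between these libraries.

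A desmosome is built from transmembrane cadherins, the desmogleins and desmocollins, which bind those of the neighbouring cell. Inside the cell, plakoglobin (Jup) and plakophilins such as Pkp1 bind the cadherin tails, and desmoplakin (Dsp) links this plaque to keratins. In epidermis the cadherins are known to be layered, with Dsg2 and Dsg3 placed towards the basal layer and the Dsg1 and Dsc1 proteins towards the upper layers. Desmogleins are the antigens of the blistering disease pemphigus.

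Of 50850 cells kept, 14987 were gated as keratinocytes from keratin and other marker genes, with no desmosome gene in the gate. They were divided into 9848 basal, 3613 suprabasal and 1526 follicle cells. The follicle class was set by hair follicle and duct markers such as Krt79, and the other 2 by whether the basal list (Krt5, Krt14, Krt15, Col17a1, Itga6) or the suprabasal list (Krt1, Krt10, Krtdap, Sbsn, Dmkn, Calm4) held more of the UMIs of a cell. A UMI is a tag of a single captured RNA molecule, and levels are given in UMIs per 1000000 UMIs of the class (UPM). The classes are ranges of a marker score rather than cell types. A library had 188 to 3976 basal, 88 to 1773 suprabasal and 128 to 476 follicle cells, the lowest count of each in IMQ+SHP099 replicate 2.

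The classes were not equally distinct in the groups. Krt10, a keratin of the spinous layer, was at 19210 and 24880 UPM in suprabasal cells of the Sham libraries, at 6644 and 3923 in IMQ and at 3764 and 5812 in IMQ+SHP099. The basal keratin Krt14 was at 1151 and 971 UPM in Sham suprabasal cells but at 10670 to 13960 in the 4 treated libraries. In basal cells, the differentiation gene Krtdap was at 288 and 200 UPM in Sham and at 2790 to 3249 in treated skin, while Krt15 was at 5111 and 3934 UPM in Sham and at 59.8 to 224 in treated skin. Between 7.26% and 11.3% of suprabasal cells in Sham, and between 39.8% and 55.9% in treated skin, lay within a factor of 2 of the line between the classes. Each difference between groups below therefore sits beside a shift in gate markers, whose part in the result was not tested beyond the other gates named. Clustering of the keratinocytes placed the cells of a class in different clusters by group and, within Sham, also by library. Basal clusters 0 and 2 held 1228 of 1232 and 1231 of 1232 cells from Sham replicate 1, and basal clusters 11 and 13 held no Sham cell. Suprabasal clusters 4 and 9 held mostly cells of Sham replicate 1 (1486 of 1495 and 516 of 609). Cluster 16 held mostly cells of Sham replicate 2 (827 of 850), and clusters 14 and 18 held no Sham cell. Follicle cluster 5 held 156 and 137 cells of Sham replicates 1 and 2 among 298. Cluster 17 held 87 of 89 cells from Sham replicate 2, and follicle clusters 12 and 15 were nearly all treated. The parts of library and treatment in this split were not tested. Of the cells gated as basal, 30.1% in Sham replicate 2 and 55.2% to 91.8% in the other libraries had the same class from clusters. Sham replicate 2 also stood apart in the follicle class, where the hair follicle keratin Krt75 was at 2720 UPM against 0 to 4.32 in the other 5 libraries, so follicle values rest on libraries that differ in follicle content.

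Depth also differed. The median basal cell held 8806 and 13639 UMIs in Sham skin, against 39316 and 32204 under IMQ and 26574 and 28684 with SHP099 added. Any pair of libraries shared 12 to 30 cell barcodes, at most 0.391% of the smaller library. Markers of other cells were low in the gated classes but moved with the groups. The summed level of 6 leukocyte markers in basal cells was 40.3 to 78.7 UPM in Sham, against 14.4 to 34.8 under IMQ and 7.4 to 7.55 with SHP099 added. The Langerhans cell marker Cd207 was at 12.9 to 67.0 UPM in Sham basal cells and at 0 to 2.98 in treated ones, while 3 Schwann cell markers summed to 51.3 to 60.7 UPM in Sham basal cells and to 20.7 to 25.4 in treated ones, and were lower in treated skin without overlap in each class. In the other direction, 4 mural cell markers summed to 5.57 to 17.3 UPM in Sham and to 19.9 to 40.9 in treated basal cells, and to 2.29 to 15.2 and 17.1 to 46.9 in suprabasal cells. The sum of 5 fibroblast markers in suprabasal cells was 55.1 to 159 UPM in Sham, 143 to 344 under IMQ and 191 to 299 with SHP099 added. In basal and follicle cells the ranges of this sum overlapped between the groups. The part of these cells in the results was not tested. Fibroblasts were gated by the same kind of cut, which leaves out cells with many keratinocyte marker UMIs. In them 7 members were at 7.90 UPM or less in every library. Pkp1 was at 0.925 to 9.71, Dsp at 2.57 to 19.6 and Jup at 15.2 to 29.7. The part of free RNA in these levels was not tested.

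The 7 cadherin genes form 1 cluster on chromosome 18 of GRCm38, the build of the files, with coordinates from GENCODE vM21. On the plus strand lie Dsg1a (20310811 to 20343350), Dsg1b (20376729 to 20410196), Dsg3 (20510274 to 20547459) and Dsg2 (20558074 to 20604521). Dsc3 (19960930 to 20002351), Dsc2 (20030633 to 20059554) and Dsc1 (20084184 to 20114871) lie on the minus strand. All are protein coding. Dsg1a and Dsg1b are close copies, but no stretch of 91 bases in the last 1000 bases of a cadherin transcript was shared with another cadherin of the cluster, Dsg1c and Dsg4 included. Dsg2 overlaps the antisense gene Gm16090.

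Within the libraries, 9 of the 10 members differed between suprabasal and basal cells when averaged over the 3 groups (edgeR quasi-likelihood test, Benjamini-Hochberg adjusted p under 0.05), against 56.6% of all genes tested. The cadherins did not move as a block. Dsg2 and Dsg3 were lower in suprabasal cells, Dsc1, Dsg1a, Dsg1b and Dsc3 were higher, and Dsc2 did not pass the test (log2 difference 0.44, adjusted p = 0.164). All 3 plaque genes were higher in suprabasal cells.

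Dsc1, the desmocollin of the upper layers, had the largest log2 difference of the 10. In Sham skin it was at 0.913 and 1.44 UPM in basal cells and at 82.8 and 78.6 in suprabasal cells. The log2 difference over all groups was 4.43 (SE 0.19, adjusted p = 1.91e-08). Dsg1a, a copy of the desmoglein 1 gene, was at 165 and 271 UPM in Sham basal cells and at 1147 and 1376 in Sham suprabasal cells, a log2 difference over all groups of 2.84 (SE 0.12, adjusted p = 1.96e-08). The other copy, Dsg1b, at 6.21 and 11.02 UPM in Sham basal cells, was at 75.6 and 83.8 in suprabasal cells, with a log2 difference of 2.53 (SE 0.11). In each of these genes the suprabasal level was above the basal level in all 6 libraries.

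Dsg2, the desmoglein shared with simple epithelia, ran the other way. It was at 54.6 and 82.3 UPM in Sham basal cells and at 4.23 and 5.99 in Sham suprabasal cells, and the log2 difference over all groups was -3.62 (SE 0.18, adjusted p = 5.07e-08). Dsg3, the antigen of pemphigus vulgaris, was at 50.5 and 68.8 UPM in Sham basal cells and at 14.0 and 13.2 in suprabasal cells. Its log2 difference over all groups was -0.92 (SE 0.11, adjusted p = 2.46e-05), and when classes were taken from clusters of cells this call was lost (log2 difference -0.10, adjusted p = 0.666). Dsc3 was higher in suprabasal cells by 0.59 on the log2 scale (SE 0.10, adjusted p = 3.12e-04).

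**Figure D1:**
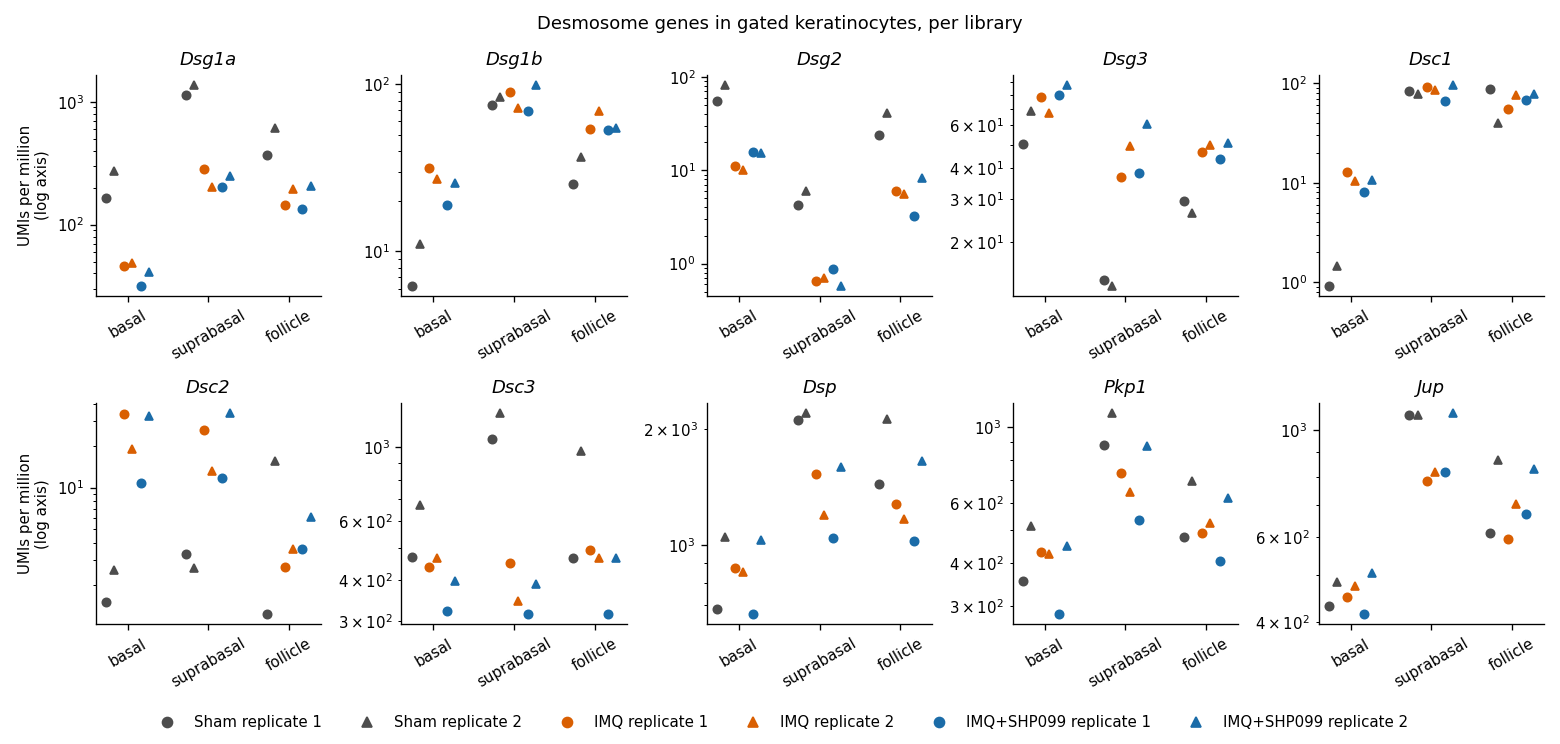
Level of each of the 10 desmosome genes in UPM (log axis) in basal, suprabasal and follicle keratinocytes, 1 point per library. In Sham suprabasal cells Dsg1a reaches 1147 and 1376 while Dsg2 is at 4.23 and 5.99, and in treated basal cells Dsg1a and Dsg2 lie below and Dsc1, Dsc2 and Dsg1b above the Sham points.

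The plaque genes shared 1 direction. Dsp, the largest plaque protein, was at 682 and 1051 UPM in Sham basal cells and at 2107 and 2196 in suprabasal cells. Jup was at 432 and 484 UPM against 1075 and 1076, and Pkp1, the plakophilin of stratified epithelia, at 355 and 512 against 887 and 1097. Over all groups the log2 differences were 1.19 for Dsp (SE 0.08), 1.34 for Jup (SE 0.08) and 1.26 for Pkp1 (SE 0.07), each with an adjusted p of 3.10e-07 or less. The layer difference of these genes was present in every group taken alone, at 1.61, 1.02 and 0.96 for Dsp, 1.50, 1.15 and 1.36 for Jup and 1.47, 1.05 and 1.26 for Pkp1 (Sham, IMQ and IMQ+SHP099, in this order).

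The plaque genes lie apart from the cadherins. Dsp is on chromosome 13 (38151294 to 38198577, plus strand, with the antisense gene Gm10129 inside its span), Jup on chromosome 11 (100368958 to 100397763, minus strand) and Pkp1 on chromosome 1 (135871395 to 135919207, minus strand, overlapped by Gm36938 on the same strand).

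The 250 bases before the start of Jup and Dsp are shown because these genes share the layer difference, and because they were the 2 of the 10 members matched to a promoter entry (RefSeq, GRCm38.p6). Jup lies at chr11:100397791-100398040 on the minus strand and Dsp at chr13:38151044-38151293 on the plus strand. Both are written 5′ to 3′ on the strand of the gene, and capitals mark GC boxes (GGGCGG) and, in Jup, CACCC boxes, on either strand.
Jup: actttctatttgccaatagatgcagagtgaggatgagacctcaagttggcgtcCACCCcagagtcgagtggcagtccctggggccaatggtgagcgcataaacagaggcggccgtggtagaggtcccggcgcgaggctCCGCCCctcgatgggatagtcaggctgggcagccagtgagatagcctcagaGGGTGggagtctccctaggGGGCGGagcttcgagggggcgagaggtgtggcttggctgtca
Dsp: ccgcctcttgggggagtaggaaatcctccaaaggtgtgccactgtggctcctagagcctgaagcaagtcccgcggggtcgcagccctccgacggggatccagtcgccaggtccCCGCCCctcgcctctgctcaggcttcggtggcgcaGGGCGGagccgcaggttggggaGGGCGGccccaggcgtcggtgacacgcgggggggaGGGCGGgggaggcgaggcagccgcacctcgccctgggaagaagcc
GC content was 62.0% for Jup and 72.4% for Dsp, against a median of 52.4% over 32817 promoters. A GC box was found in both, as in 32.7% of all promoters, with 2 matches in Jup and 4 in Dsp. CACCC, found in 52.0% of all promoters, had 2 matches in Jup. Neither window held an AP-1 site (TGANTCA, 6.75% of all promoters), a Grainyhead-like core (AACCGG, 5.62%), a TATAAA box (12.4%), an E-box (CANNTG, 66.2%) or a C/EBP site (TTGCNNAA, 9.57%), each searched on both strands. A match is a run of letters and not a measured binding site.

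The comparison of IMQ with Sham asked how these genes differed between treated and untreated skin. Sham mice had no treatment, so imiquimod, its cream and handling cannot be told apart. The classes compared lie mostly in different clusters in Sham and in treated skin, and the Sham clusters also split by library, as given above. In basal cells Dsg1a and Dsg2 fell, Dsg1b, Dsc1 and Dsc2 rose, and Dsg3, Dsc3 and the 3 plaque genes did not pass the threshold. In suprabasal cells Dsg1a, Dsg2 and Dsc3 fell and Dsg3 and Dsc2 rose. Thus 5 of 10 members passed in each class (edgeR, adjusted p under 0.05), where 23.8% of all genes tested passed in basal and 19.5% in suprabasal cells. The median log2 change of the 10 members was 0.23 in basal and -0.09 in suprabasal cells, beside -0.07 and -0.04 over all genes.

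Dsg1a in basal cells was at 45.8 and 48.8 UPM in IMQ, against 165 and 271 in Sham. The groups did not overlap, and the gene fell by 1.96 on the log2 scale (SE 0.26, adjusted p = 7.13e-04), a 3.89-fold difference. The suprabasal levels were 284 and 202 UPM in IMQ against 1147 and 1376 in Sham, where it fell by 1.99 (SE 0.32, adjusted p = 0.00164), a call lost without IMQ replicate 2 (adjusted p = 0.0667). With Krt14 taken out of the basal list, the fall in basal cells was larger, at 4.32 on the log2 scale (adjusted p = 3.42e-05).

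Dsg1b went the other way in the basal gate. It was at 31.4 and 27.1 UPM in IMQ basal cells, above both Sham libraries, and rose by 2.04 on the log2 scale (SE 0.27, adjusted p = 6.44e-04). In suprabasal cells it was at 89.9 and 72.5 UPM in IMQ and at 75.6 and 83.8 in Sham, with overlapping groups and a log2 change of 0.41 (adjusted p = 0.307). The basal rise depended on the gate. It was 1.08 with classes from clusters (adjusted p = 0.0516) and 0.02 with Krt14 left out of the basal list (adjusted p = 0.975).

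The 2 Dsg1 copies can be set against each other inside a library, where depth is shared, although the captured ends of the transcripts need not be caught equally well. In basal cells the UMIs of Dsg1b per UMI of Dsg1a were 0.0376 and 0.0406 in Sham, against 0.687 and 0.555 after IMQ, and 0.604 and 0.630 after IMQ+SHP099. In suprabasal cells the ratio was 0.0659 and 0.0609 in Sham and 0.316 to 0.396 in the 4 treated libraries. In follicle cells it was 0.0693 and 0.0605 in Sham and 0.263 to 0.398 in treated skin. The treated libraries lay above the Sham libraries in every class, and with 2 libraries against 2 an exact permutation test cannot go below p = 0.33.

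Dsg2 was at 11.2 and 10.2 UPM in IMQ basal cells against 54.6 and 82.3 in Sham, and fell by 2.43 on the log2 scale (SE 0.25, adjusted p = 1.73e-04), 5.40-fold. The IMQ suprabasal levels, 0.655 and 0.693 UPM, rest on 7 and 3 UMIs. There the gene fell by 2.52 (SE 0.56, adjusted p = 0.0103), and the call was lost without IMQ replicate 1 (adjusted p = 0.144), without IMQ replicate 2 (0.0713) and in 2 of the other gates (0.0616 and 0.102).

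Dsg3 changed in the suprabasal gate. Its suprabasal level was 37.0 and 49.2 UPM in IMQ against 14.0 and 13.2 in Sham, and it rose by 2.02 on the log2 scale (SE 0.29, adjusted p = 8.51e-04), 4.07-fold. In basal cells it was at 78.4 and 67.1 UPM in IMQ and at 50.5 and 68.8 in Sham, so the groups overlapped, with a log2 change of 0.52 (SE 0.25, adjusted p = 0.162). The suprabasal rise passed the threshold in each of the 19 alternatives tried, at 1.56 to 2.22 on the log2 scale.

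Among the desmocollins, Dsc2 rose in both layers. It was at 34.0 and 19.1 UPM in IMQ basal cells against 1.49 and 2.54 in Sham, a rise of 4.02 on the log2 scale (SE 0.51, adjusted p = 5.45e-04). In suprabasal cells it was at 25.9 and 13.2 UPM against 3.30 and 2.63, a rise of 3.07 (SE 0.48, adjusted p = 0.00141) that was 2.10 without the cells near the line (adjusted p = 0.0581). In each layer the lower IMQ library was still above both Sham libraries.

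Dsc1 was at 12.8 and 10.5 UPM in IMQ basal cells against 0.913 and 1.44 in Sham, and rose by 3.57 on the log2 scale (SE 0.34, adjusted p = 1.02e-04). In suprabasal cells the groups were close, at 92.5 and 85.6 UPM against 82.8 and 78.6 (log2 change 0.51, adjusted p = 0.207). As with Dsg1b, the basal rise was smaller in other gates, at 1.55 with classes from clusters (adjusted p = 0.0647) and 1.41 without Krt14 in the basal list (adjusted p = 0.0772).

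Dsc3 was lower in IMQ suprabasal cells, at 450 and 347 UPM against 1064 and 1269, and fell by 1.16 on the log2 scale (SE 0.31, adjusted p = 0.0228). This call was lost without IMQ replicate 1 (adjusted p = 0.181), IMQ replicate 2 (0.369) or Sham replicate 1 (0.0504) and with classes from clusters (0.127). In basal cells it was at 436 and 465 UPM in IMQ and at 470 and 673 in Sham (log2 change -0.11, adjusted p = 0.811).

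No plaque gene passed the threshold in either layer. In basal cells of IMQ skin Dsp was at 871 and 852 UPM, Pkp1 at 431 and 426 and Jup at 451 and 475, each between its 2 Sham values. The log2 changes were 0.23 for Dsp, 0.22 for Pkp1 and 0.22 for Jup, with 95% intervals of -0.51 to 0.97, -0.47 to 0.90 and -0.46 to 0.89. In suprabasal cells they were -0.28, -0.13 and -0.05, with adjusted p of 0.595, 0.808 and 0.928. As UPM levels, the suprabasal values were below both Sham libraries for all 3, at 1524 and 1196 for Dsp, 734 and 646 for Pkp1 and 783 and 817 for Jup. UPM levels are scaled to total UMIs and the fitted changes to TMM library sizes, and without TMM the median change of all suprabasal genes moved from -0.04 to -0.42.

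**Figure D2:**
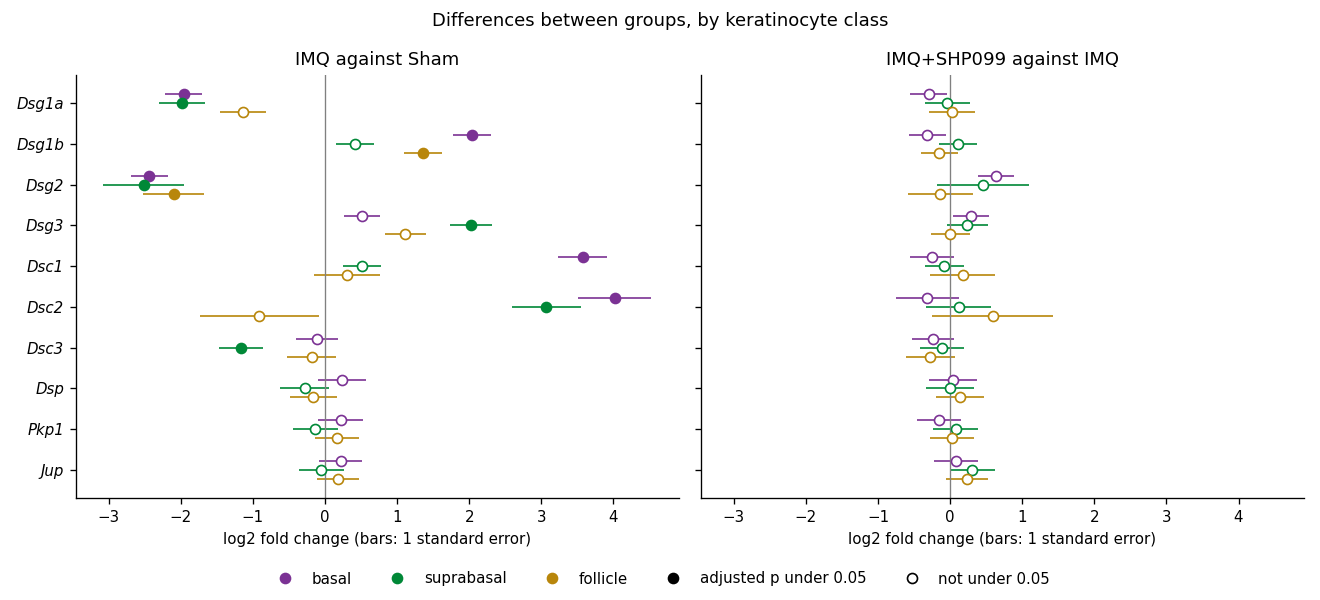
Log2 fold change of each member in basal, suprabasal and follicle cells for IMQ against Sham (left) and IMQ+SHP099 against IMQ (right), with bars of 1 SE, filled where the adjusted p was under 0.05. On the left Dsc2 reaches 4.02 and Dsg2 -2.52 while the plaque genes lie near 0, and on the right every point is open.

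Whether a change differed between the layers was tested as an interaction, and 4 of 10 members passed (edgeR, adjusted p under 0.05), against 7.74% of all genes. The log2 change under IMQ was lower in suprabasal than in basal cells for Dsc1 (difference of log2 changes -3.30, SE 0.46, adjusted p = 0.00196), Dsg1b (-1.71, SE 0.26, adjusted p = 0.00317) and Dsc3 (-1.13, SE 0.24, adjusted p = 0.0163). It was higher for Dsg3 (1.43, SE 0.27, adjusted p = 0.00899). For Dsg1a and Dsg2, which fell in both layers, the differences were -0.10 (95% interval -0.71 to 0.51) and -0.19 (-1.29 to 0.90), and with Krt14 left out of the basal list the value for Dsg1a turned to 1.71 (adjusted p = 0.0105). None of the 4 differences passed with classes from clusters, where they were -1.06, -0.07, -0.70 and 0.99 for Dsc1, Dsg1b, Dsc3 and Dsg3.

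The same values can be read as layer differences within each group. Dsc1 was higher in suprabasal cells by 6.58 on the log2 scale in Sham, by 3.28 under IMQ and by 3.42 with SHP099 added, and Dsg1b by 3.54, 1.83 and 2.22. Dsg3 was lower in suprabasal cells by 1.85 in Sham (adjusted p = 2.13e-05), whereas the log2 differences in IMQ and IMQ+SHP099 were -0.42 (adjusted p = 0.113) and -0.50 (adjusted p = 0.0612). Dsc3 was higher by 1.31 in Sham (adjusted p = 1.04e-04), with differences of 0.18 (adjusted p = 0.455) and 0.29 (adjusted p = 0.221) in the treated groups. Dsg1a and Dsg2 kept their layer difference, at 2.83, 2.73 and 2.97 for Dsg1a and -3.47, -3.67 and -3.74 for Dsg2.

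**Figure D3:**
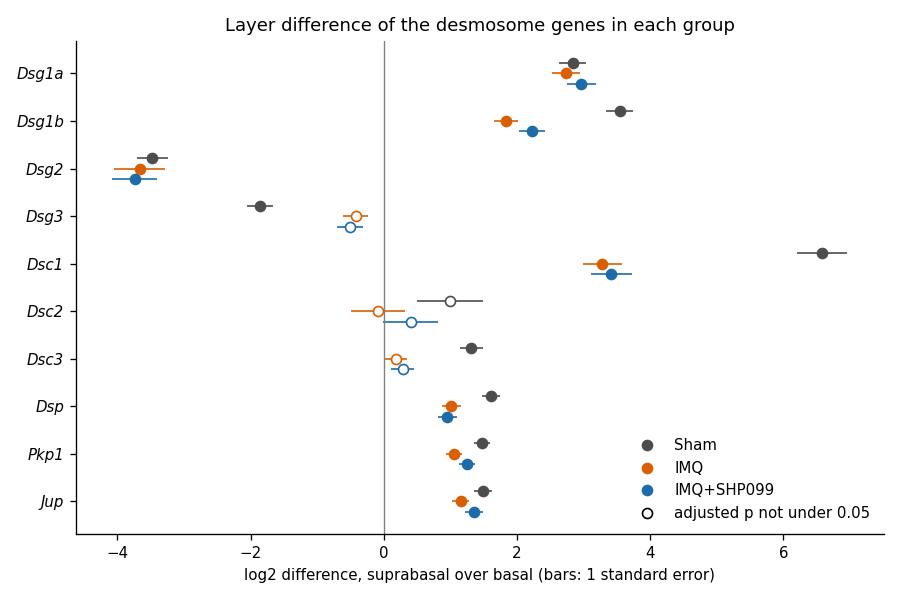
Log2 difference of suprabasal over basal cells for each member in Sham, IMQ and IMQ+SHP099 (points), with bars of 1 SE and open points where the adjusted p was not under 0.05. Dsc1 runs from 6.58 in Sham to 3.28 in IMQ, Dsg3 from -1.85 to -0.42, and Dsg1a stays between 2.73 and 2.97.

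Because the layers were less distinct in treated skin, the cadherins were also read along the ratio of the suprabasal to the basal list, in 5 bins on a log2 scale. In the most basal bin, under -4, Dsg1a was at 137 and 203 UPM in Sham and at 5.29 and 0 in IMQ, where 0 of 701990 UMIs allow a level of up to 4.27 UPM. In IMQ+SHP099 it was at 3.39 and at 6.05, the last from 1 UMI in 13 cells. In the most suprabasal bin, over 2, it was at 1268 and 1465 UPM in Sham and at 454 and 197 in IMQ. Dsg1a was thus below Sham at both ends of the ratio.

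Dsg1b and Dsc1 were at their lowest in the most basal bin in every library, tied at 0 with the next bin for Dsc1 in IMQ+SHP099 replicate 2. There Dsg1b was at 4.63 and 7.83 UPM in Sham and at 1.06 and 1.43 in IMQ, from 2 and 1 UMIs, and Dsc1 was at 0.51 UPM or less in all 6 libraries. In the bin from -4 to -2, which held the most basal cells of both IMQ libraries (342 and 234), Dsg1b was at 6.22 and 9.78 UPM in Sham and at 8.65 and 5.97 in IMQ, so the groups overlapped, and Dsc1 at 1.16 and 1.37 against 2.68 and 2.44. In the bin from -2 to 0, which is still in the basal class and next to the line, Dsg1b was at 16.5 and 25.5 UPM in Sham and at 60.2 and 55.2 in IMQ, and Dsc1 at 2.94 and 5.09 against 25.5 and 21.7. IMQ values of Dsg1b were thus below the Sham values in the most basal bin, on few UMIs, overlapped them in the next and were above them in the bin beside the line. Dsc2 was at 58.3 and 36.4 UPM in IMQ in the bin from -2 to 0, against 1.77 and 3.18 in Sham. These bin values are descriptions and were not tested.

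**Figure D4:**
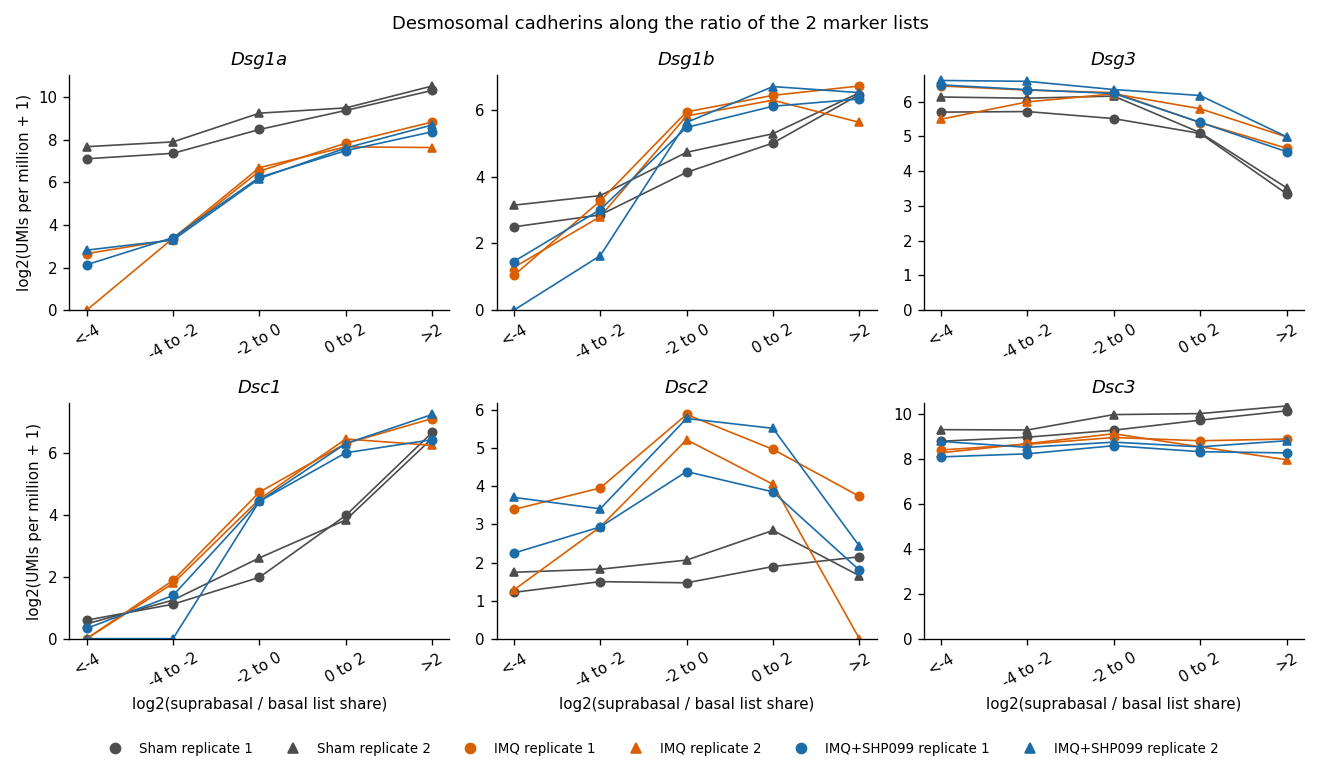
Level of the 6 cadherins Dsg1a, Dsg1b, Dsg3, Dsc1, Dsc2 and Dsc3, as log2(UPM + 1), in 5 bins of the log2 ratio of the suprabasal to the basal marker list, 1 line per library. Dsg1a is below Sham in treated skin in every bin, while Dsg1b is below Sham in the bin under -4 and above it in the bin from -2 to 0.

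Follicle cells line the hair follicle and its ducts. Over all groups 9 of 10 differed from basal cells (edgeR, adjusted p under 0.05), against 45.4% of all genes. Of these, 6 were higher, namely Dsc1 (log2 difference 3.82), Dsg1a (1.77), Dsg1b (1.46), Dsp (0.76), Jup (0.65) and Pkp1 (0.42), and 3 were lower, Dsg2 (-1.22), Dsc2 (-0.99) and Dsg3 (-0.81). Dsc2 was not alike in the Sham libraries, at 1.22 UPM in replicate 1 and 15.5 in replicate 2, the library with Krt75. Its difference from basal cells was 1.84 in Sham (adjusted p = 0.0381) and -2.91 in IMQ (adjusted p = 0.00251). The difference of Dsc2 over all groups lost its call in 5 alternatives and turned in 1.

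Under IMQ, 2 of 10 members passed in follicle cells, against 5.13% of all genes. Dsg2 was at 5.96 and 5.57 UPM against 23.8 and 41.1 in Sham and fell by 2.10 on the log2 scale (SE 0.42, adjusted p = 0.0336). Dsg1b was at 53.9 and 69.0 UPM against 25.4 and 36.8 and rose by 1.36 (SE 0.26, adjusted p = 0.0313). Neither call held without IMQ replicate 1 or 2, IMQ+SHP099 replicate 1 or 2, or Sham replicate 2, where 0 members passed. Dsg1a (144 and 196 UPM against 366 and 609, adjusted p = 0.0815) and Dsg3 (46.5 and 49.6 against 29.3 and 26.3, adjusted p = 0.0614) did not pass. The groups did not overlap for these 4 genes, nor for Dsp, which was far from the threshold (edgeR, adjusted p = 0.794). The share of all genes without overlap was not computed.

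With all gated keratinocytes summed, so that no line between layers was drawn, 4 of 10 members passed for IMQ against Sham, where 18.1% of all genes passed. Dsg1a fell by 2.15 on the log2 scale (adjusted p = 0.00274) and Dsg2 by 2.17 (adjusted p = 0.00101), while Dsg3 rose by 0.91 (adjusted p = 0.0345) and Dsc2 by 3.14 (adjusted p = 0.00311). Dsg1b (0.67, adjusted p = 0.0865) and Dsc1 (0.45, adjusted p = 0.282) did not pass. The share of each class in the sum differs between libraries and enters these values.

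Detection was compared with each cell thinned to 5000 UMIs, which left out 1.13% to 15.3% of basal and suprabasal cells per library. At that depth a UMI of Dsg1a was expected in 51.5% and 64.9% of Sham basal cells, against 17.0% and 16.2% of IMQ cells and 12.3% and 13.4% of IMQ+SHP099 cells. Unthinned, the shares were 67.6% and 85.1%, 43.3% and 39.8%, and 30.5% and 32.5%. Gated fibroblasts, which should lack Dsg1a, gave at most 2.07%. Dsc2 was expected in 0.62% and 1.22% of Sham basal cells and in 11.4% and 5.46% of IMQ cells, with 0.0731% or less in fibroblasts. Unthinned, its basal shares were 1.80% and 3.67% against 35.6% and 19.1%.

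Dsg3 in suprabasal cells was expected in 6.79% and 6.74% of Sham cells, 16.7% and 21.1% of IMQ cells and 16.9% and 24.4% of IMQ+SHP099 cells. Dsc1 was expected in 18.8% and 18.2% of Sham suprabasal cells and in 27.0% to 37.4% of treated ones. Dsp, Jup and Pkp1 were expected in at least 68.3% of cells of every library and class. Between IMQ and Sham the shares overlapped for Dsg3, Dsp and Pkp1 in basal cells and for Dsg1b and Dsp in suprabasal cells. For the other members they did not overlap in these classes. There each exact two-sided permutation test gave p = 0.33, the smallest that 2 against 2 libraries allows. The share of all genes without overlap was not computed. Between IMQ+SHP099 and IMQ the shares of Dsg3 in suprabasal and Dsc2 in basal cells overlapped. Those of Dsg1a in basal cells did not, with group means of 12.8% in IMQ+SHP099 and 16.6% in IMQ (exact permutation test, p = 0.33). Nor did those of Dsg2, Dsg3 and Dsc3 in basal cells and of Dsc3 in suprabasal cells.

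**Figure D5:**
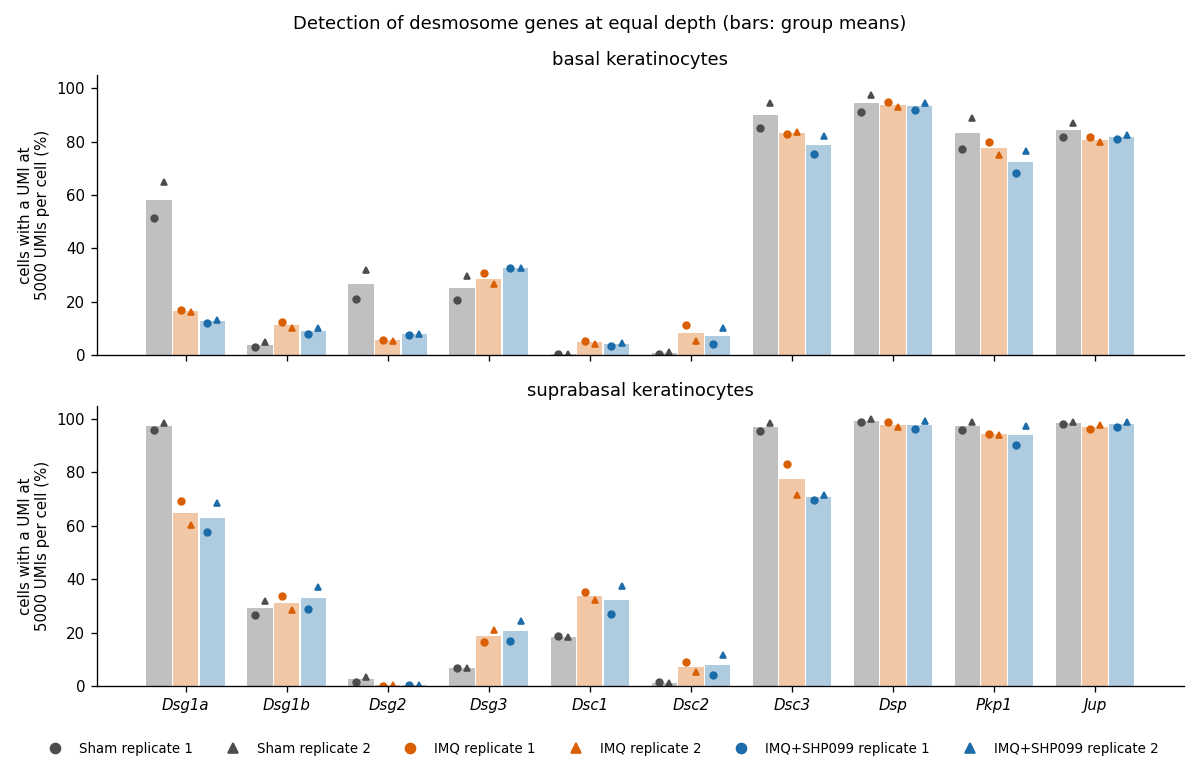
Share of basal (top) and suprabasal (bottom) keratinocytes expected to hold a UMI of each member at 5000 UMIs per cell, in percent, with points for libraries and bars for group means. Dsg1a in basal cells is at 51.5% and 64.9% in Sham and at 12.3% to 17.0% in the 4 treated libraries, while Dsp, Pkp1 and Jup stay at 68.3% or above.

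The comparison of IMQ+SHP099 with IMQ asked which of these values the SHP2 inhibitor moved. With edgeR, 0 of 10 members passed in basal, suprabasal or follicle cells or in all keratinocytes, where 0.0152%, 0%, 0% and 0% of all genes tested passed. At an unadjusted p under 0.05 the counts were 1, 0, 0 and 1, and DESeq2 called 0 members in each of the 3 classes. The unadjusted call was Dsg2, at 15.6 and 15.4 UPM in IMQ+SHP099 basal cells against 11.2 and 10.2 in IMQ (log2 change 0.64, 95% interval 0.08 to 1.19, adjusted p = 1.0). Both values stayed below the Sham levels of 54.6 and 82.3.

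The data limit the size of an inhibitor effect to different degrees. For Dsg1a the 95% intervals of the log2 change were -0.87 to 0.27 in basal and -0.72 to 0.64 in suprabasal cells, for Dsg3 -0.27 to 0.85 and -0.39 to 0.87, and for Dsp -0.69 to 0.79 and -0.74 to 0.74. Dsc2 was the least even, at 10.9 and 32.6 UPM in IMQ+SHP099 basal cells against 34.0 and 19.1 in IMQ, with an interval of -1.30 to 0.67. The difference of the inhibitor effect between the layers passed for 0 of 10 members (0% of all genes), with adjusted p = 1.0 for each and, at an unadjusted p, none under 0.05.

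IMQ+SHP099 against Sham shares its controls with IMQ against Sham. In basal cells 6 of 10 members passed, against 25.6% of all genes, the sixth being Dsg3 (79.7 and 87.7 UPM against 50.5 and 68.8, log2 change 0.81, adjusted p = 0.0409). In suprabasal cells 5 passed (19.1% of all genes), in follicle cells 2 (4.64%) and in all keratinocytes 4 (19.6%). The 2 follicle calls, Dsg2 and Dsg1b, were lost in 8 and 11 of 19 alternatives. Of the suprabasal calls, those of Dsg2, Dsc3 and Dsc2 were lost in 6, 4 and 1 of 19 alternatives. With DESeq2, 2 members were higher and 2 lower in suprabasal cells. Dsg1a fell by 2.26 in basal and 2.03 in suprabasal cells on the log2 scale, beside 1.96 and 1.99 under IMQ alone.

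Other junction genes were read in the same fits, as lists beside the members, for IMQ against Sham, where 23.8% of all genes passed in basal and 19.5% in suprabasal cells. Among 9 further desmosome and cornified desmosome genes, 0 rose and 1 fell of 7 tested in basal cells, and 0 rose and 3 fell of 6 in suprabasal cells. The one in basal cells was Pkp4, an armadillo-repeat relative of the plakophilins (log2 change -1.09, adjusted p = 0.0105), a call lost without either IMQ library and with classes from clusters. Suprabasal cells had less Cdsn, the corneodesmosin of the cornified layer (123.5 and 59.8 UPM in Sham, 2.34 and 10.2 in IMQ, log2 change -3.69, adjusted p = 0.00493), Ppl, periplakin (-1.11, adjusted p = 0.0205), and Pkp4 (-0.82, adjusted p = 0.046). The suprabasal calls were lost in 9 of 19 alternatives for Pkp4, DESeq2 and the replicate block among them, and in 5 of 19 for Ppl. Perp, a tetraspan desmosome protein, and Pkp3 did not pass in either layer.

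Hemidesmosome genes, which tie basal cells to the basement membrane, fell in 3 of 4 cases in basal and 4 of 4 in suprabasal cells. Dst, the cytolinker of the hemidesmosome, was at 487 and 921 UPM in Sham basal cells and at 104 and 99.7 in IMQ (log2 change -2.52, adjusted p = 5.24e-04), and Plec and Itgb4 fell by 1.58 and 0.99. Both latter calls were lost without either IMQ library, and that of Itgb4 also without the cells near the line, without Krt14 in the basal list and with classes from clusters. In suprabasal cells Dst fell by 3.74, Itgb4 by 2.83, Plec by 2.15 and Cd151, a tetraspanin of the hemidesmosome, by 1.18 (adjusted p = 0.0244), the last a call lost in 6 of 19 alternatives. The median log2 change of this list was -1.29 in basal and -2.49 in suprabasal cells, beside -0.07 and -0.04 over all genes.

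Of 6 gap junction genes tested, 1 of which is not reported here, 2 rose in basal cells and 3 rose in suprabasal cells. Gjb2, which encodes connexin 26, was at 60.8 and 44.1 UPM in Sham suprabasal cells and at 1000 and 943 in IMQ (log2 change 4.56, adjusted p = 3.76e-05). In basal cells it rose by 5.30. Gjb6 rose by 3.36 in basal, a call lost without Krt14 in the basal list, and by 3.93 in suprabasal cells, and Gja1 by 2.01 in suprabasal cells, whereas Gjb5 fell by 2.88 there. Both directions occurred within this family.

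Adherens junction genes gave 1 rise and 0 falls of 9 in basal cells (Nectin4, log2 change 1.60, adjusted p = 0.00262, lost in 2 other gates) and 1 rise and 2 falls in suprabasal cells. The rise was Cdh3, the P-cadherin of the basal layer (10.1 and 8.09 UPM in Sham, 21.4 and 18.7 in IMQ, log2 change 1.49, adjusted p = 0.008), and Afdn and Nectin4 fell by 1.52 and 1.46. These suprabasal calls were lost in 2, 3 and 2 of 19 alternatives for Cdh3, Afdn and Nectin4, each time without IMQ replicate 1 and with classes from clusters, and for Afdn also without IMQ replicate 2. E-cadherin (Cdh1) did not pass in either layer. Of the tight junction genes 0 of 7 passed with edgeR in basal cells (3 at an unadjusted p under 0.05, and 1 with DESeq2), and Ocln fell by 1.27 in suprabasal cells, a call lost without Sham replicate 1, without IMQ replicate 2 and with classes from clusters. Among 8 regulators Grhl3, a Grainyhead-like factor of epidermal differentiation, rose by 3.42 in basal and 2.08 in suprabasal cells, and Egfr fell by 0.90 in basal cells, a call lost without either IMQ library.

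Outside keratinocytes only fibroblasts, leukocytes and endothelial cells were gated, and in these Jup had the highest group means of the members. In gated endothelial cells, where plakoglobin also joins VE-cadherin junctions, it was at 268 and 303 UPM in Sham, at 212 and 294 under IMQ and at 237 and 337 with SHP099 added, so the groups overlapped. In gated leukocytes it was at 93.0 and 86.5 UPM in Sham and at 11.4 to 21.2 in treated skin. In the same leukocytes Dsp was at 63.7 UPM in Sham replicate 1 and at 13.5 in Sham replicate 2, and at 2.43 to 25.4 in treated libraries. Whether keratinocyte RNA or keratinocytes in the leukocyte gate have a part in these values was not tested.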

How the data were processed

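The 6 libraries of mouse dorsal skin were made with 10x 3′ chemistry and grouped by the labels. The authors deposited raw UMI counts per gene and barcode, made with Cell Ranger 3.1.0 against GRCm38, with no normalization and barcodes of at least 500 UMIs. Total UMIs per library were 53913865 to 188283327. The members and gene lists were chosen with earlier results of these data known. Following the methods of the study, a barcode was kept if it had less than 100000 UMIs, 6500 genes and 10% mitochondrial UMIs. Doublets were not removed.

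A cell was a keratinocyte when its keratinocyte list held at least 1% of its UMIs and at least 90% of the UMIs in that list and the lists of other cells together. A follicle list of at least 0.5% made it a follicle cell. Cuts were set on these shares alone. UMIs were summed per library and class and fitted in edgeR 4.0.16 (R 4.3.3) by the quasi-likelihood test with TMM, filterByExpr and group as the term, over all 6 libraries (n = 2 per group). Layer differences and interactions came from 1 fit of the 18 class sums with library as a block. P-values were adjusted by Benjamini-Hochberg over all genes tested and read at 0.05. All 10 members passed the filter in each class. The SE is the log2 change over the square root of F, and 95% intervals use the t distribution with the degrees of freedom of edgeR. Thinning was computed as an expectation per cell. Scripts used Python 3.11.15, scanpy 1.11.5, numpy 2.4.6 and scipy 1.17.1, and the fits were tested on simulated data. Named genes are the 10 members and, from the junction lists, those past the threshold in basal or suprabasal cells for IMQ against Sham plus up to 2 per list that were not; 1 gap junction gene is not reported here.

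Alternatives were DESeq2 1.42.0, no TMM, no filter on low counts, the 2 compared groups alone, a replicate block, leaving out each library, a mitochondrial limit of 5%, leaving out cycling cells, high Scrublet scores or cells near the line, other follicle and suprabasal gates, classes from clusters and, chosen after seeing the marker levels, a basal list without Krt14.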

Additional observations from a re-analysis of the deposited data

Results flagged for a closer look

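For 4 members the change from Sham to IMQ differed between suprabasal and basal cells in a test of that difference. The differences of the log2 changes, suprabasal minus basal, were -3.30 for Dsc1, -1.71 for Dsg1b, -1.13 for Dsc3 and 1.43 for Dsg3. In Dsc1 and Dsg1b the level moved in the basal gate, and in Dsc3 and Dsg3 it moved in the suprabasal gate. The same treated cells carried Krt14 in the suprabasal gate and Krtdap in the basal gate, and with classes from clusters the adjusted p of these 4 differences was 0.167 to 0.963 (edgeR).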

How the results depend on the processing

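Over 47 member values past the threshold and 849 alternatives of them, 756 kept the direction and the call, 90 kept the direction but lost the call, and 3 turned. The number of members past the threshold for IMQ against Sham in basal cells, 5, was 3 without Krt14 in the basal list and 3 with classes from clusters; for IMQ+SHP099 against Sham, 6 became 3 and 3, and 5 when any library was left out. In suprabasal cells 5 became 3 without the cells near the line, and 2 to 5 when a library was left out. In follicle cells 2 became 4 with DESeq2 and 1 with only the compared groups for IMQ against Sham, and 4 with DESeq2, 1 with the follicle limit doubled and 0 with only the compared groups for IMQ+SHP099 against Sham; leaving out a library gave 0 to 3 in both. The 4 differences between layers became 2 without Krt14 and 0 with clusters, and 2 to 6 when a library was left out. The cause was not tested.

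Without Krt14 in the basal list, 4 values turned: Dsg1b for IMQ+SHP099 against Sham in basal cells (-0.11, adjusted p = 0.821), Dsc2 in follicle against basal cells (0.045, adjusted p = 0.934), and the difference of the IMQ change between the layers for Dsg1a (1.71, adjusted p = 0.0105) and Dsg1b (0.09, adjusted p = 0.897), the third of which had not passed before. The basal rise of Dsg3 under IMQ+SHP099 against Sham lost its call in 11 of 19 alternatives.

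Counts over all genes moved by more than 1.5 times in places. For IMQ against Sham in basal cells 3138 became 1402 with clusters and 1079 to 3253 without a library, in suprabasal cells 2268 became 1092 to 2875 without a library, and in follicle cells 547 became 975 with DESeq2, 1666 with no filter, 133 with only the compared groups, 1199 with clusters and 37 to 1017 without a library. For IMQ+SHP099 against IMQ in basal cells 2 became 49 with DESeq2 and 198 with no filter, but 0 members passed in each.

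With the replicate block, the follicle count for IMQ+SHP099 against Sham was 1 and the other counts of members were the same. Correlations of replicate differences ran from -0.129 to 0.318 across pairs of groups. Between Sham and IMQ+SHP099 they were 0.318 in basal, 0.228 in suprabasal and 0.239 in follicle cells. With 2 libraries per group these values cannot settle whether the shared replicate numbers pair the libraries. Depth limits Dsg2 in suprabasal cells, where treated libraries had 1 to 20 UMIs.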
